A study of Homo sapiens with 9 samples.

Results

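PHF19 was put back into multiple myeloma cells that carried an shRNA against it, and the transcriptome of the rescued cells was set against that of the knockdown. The cells were MM1S, an established human multiple myeloma line. By the labels, both groups received lentivirus with the shRNA to PHF19, and the rescued group (KD_Rescued) also expressed a PHF19 that the shRNA cannot target. The comparison used all 5 libraries of these groups among the 9 of the series, 2 of KD_Rescued and 3 of the knockdown (PHF19_KD), and it covered 16600 tested genes of the 58387 in the count table. The 3 empty vector libraries (shEV) stood beside it as a reference level and shared its estimate of spread. A further library whose title and shRNA label disagree was left out. All cells were infected with lentivirus and grew in RPMI1640 with serum, and no other agent or time point is labelled. Neither the hairpin sequence, its promoter nor whether the cells were clones or pools is stated in the labels.

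The PHF19 protein joins PRC2 (Polycomb repressive complex 2) as an accessory subunit. PRC2 is the enzyme complex that methylates histone H3 at lysine 27 (H3K27me3), a mark found on silenced genes. EZH2 or EZH1 supplies the catalytic activity, EED and SUZ12 complete the core, and one of the Polycomb-like proteins PHF1, MTF2 or PHF19 helps to bring the complex to DNA. The title of the series places PHF19 in the deposition of H3K27me3 in multiple myeloma, a cancer of antibody-secreting plasma cells, so the comparison asks which transcripts follow PHF19 when it is returned.

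The library names put both rescue libraries in another lane than the other libraries, so a difference between KD_Rescued and any other group cannot be told apart from a difference between lanes. Whether replicates came from separate cultures is not stated in the labels, so p-values measure the spread between libraries, which may be technical. Column totals were 10609798 to 12024913 counts in PHF19_KD, 23644123 to 23751353 in KD_Rescued and 16974728 to 22739741 in shEV. Mitochondrially encoded RNA took 9.60% ± 0.52 (SD, n = 3) of the counts in the knockdown and 5.08% ± 0.13 (n = 2) in the rescue, and the 100 most abundant genes took 30.0% ± 0.16 and 22.5% ± 0.26. Both shares were lower in every rescue library than in any knockdown library, and an exact permutation test of 2 against 3 libraries cannot give a two-sided p below 0.2. In shEV, replicate 3 stood apart from the other replicates (chi-square per degree of freedom 8.14 and 9.15, against 1.37 to 2.25 for all other pairs of replicates), and without it 11322 genes were called in place of 10526.

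Most tested genes differed between KD_Rescued and PHF19_KD. Of the 16600 tested genes 63.4% were called, and of all tested genes 5622 (33.9%) were higher and 4904 (29.5%) were lower in KD_Rescued at a Benjamini-Hochberg adjusted p below 0.05 by the edgeR quasi-likelihood test, and these are the genes said below to have risen or fallen. With a fold of at least 2 added, 3849 (23.2%) were called, of which 1747 (10.5%) rose and 2102 (12.7%) fell. At least 4-fold changes were called for 570 rises and 688 falls, and at least 16-fold changes for 65 and 112. The median absolute log2 fold change of the called genes was 0.75. The shares of 33.9% higher and 29.5% lower are the background for every list count below. Libraries of KD_Rescued and PHF19_KD did not overlap for 77.2% of all tested genes and 99.6% of the called genes. A lack of overlap for a named gene is therefore common. Under upper-quartile scaling, the median of all genes shifted by -0.15 (log2) and rises made up 42.1% of the calls in place of 53.4%, so the balance of rises and falls depends on the scaling. Levels are given as normalised CPM, which are counts scaled by library total and TMM factor, with libraries in replicate order, and fold changes are log2 unless written as a fold.

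**Figure D1:**
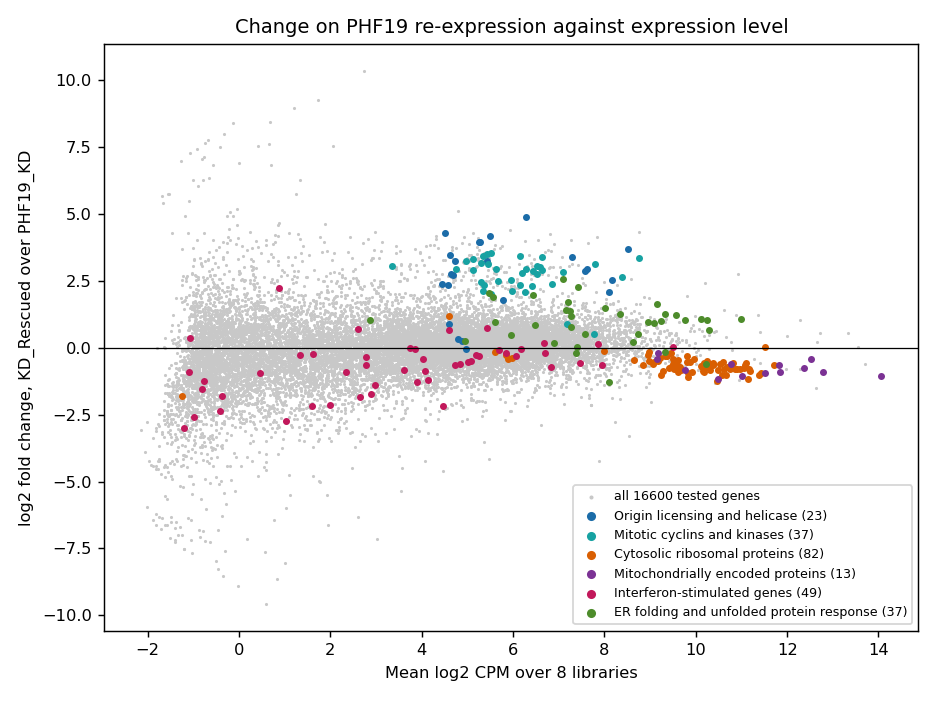
Each point is 1 of the 16600 tested genes, with the mean log2 CPM over 8 libraries on the x axis and the log2 fold change of KD_Rescued over PHF19_KD on the y axis. Colours mark 6 gene lists: licensing and mitotic genes lie mostly above 0 (medians 2.87 and 2.90), as do ER folding genes (1.03), while ribosomal protein, mitochondrially encoded and interferon-stimulated genes lie mostly below it (-0.66, -0.84 and -0.60).

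PHF19 itself stood at 26.0, 27.5 and 27.3 CPM in the knockdown, at 220.0 and 218 in the rescue and at 123.1, 124 and 103 in shEV. Both rescue libraries lay above every other library, and the rise was 8.11-fold (log2 fold change 3.02, SE 0.080, adjusted p = 2.49e-11), which put PHF19 at 188% of the shEV mean. The deposited counts do not separate the transcript of the chromosomal gene from that of the introduced PHF19.

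Other PRC2 genes also changed, and the direction differed by subunit. Of 15 tested PRC2 members, PHF19 included, 8 rose and 3 fell. Among all tested genes 33.9% rose and 29.5% fell. The rises include PHF19 itself, which was put back by design. The median log2 fold change of the 15 members, PHF19 included, was 0.37, against 0.03 over all tested genes. EZH2, the main methyltransferase of dividing cells, went from 35.1, 29.4 and 33.7 CPM to 143 and 144 (log2 fold change 2.14, SE 0.064, adjusted p = 6.57e-11). No rescue library overlapped a knockdown library, and shEV stood at 131, 133 and 133. The other core genes rose less: EED, the reader of H3K27me3, changed by 0.88 and SUZ12, the scaffold, by 0.90 on the log2 scale. The Polycomb-like gene MTF2 rose from 16.1, 17.4 and 17.7 to 24.1 and 23.8 CPM.

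The members that fell were EZH1, PHF1 and LCOR. EZH1, the catalytic subunit of resting cells, fell from 92.0, 84.7 and 85.8 CPM to 62.1 and 60.1 (log2 fold change -0.52, SE 0.060, adjusted p = 1.08e-05), against 48.2, 44.3 and 47.1 in shEV. The rescue libraries lay between the knockdown and the empty vector. PHF1, the remaining Polycomb-like gene, was at 32.8, 32.6 and 30.1 CPM in the knockdown and 26.0 and 27.001 in the rescue (log2 fold change -0.26, adjusted p = 0.025), still above the 16.4, 16.4 and 13.2 of shEV. That call was lost without knockdown replicate 1 or 2 or either rescue library, with fold changes from -0.29 to -0.23. LCOR, whose locus encodes a PRC2 accessory protein, fell to 13.4 and 12.3 CPM from 24.7, 21.8 and 23.0, below the shEV range of 17.1, 15.3 and 15.9.

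**Figure D2:**
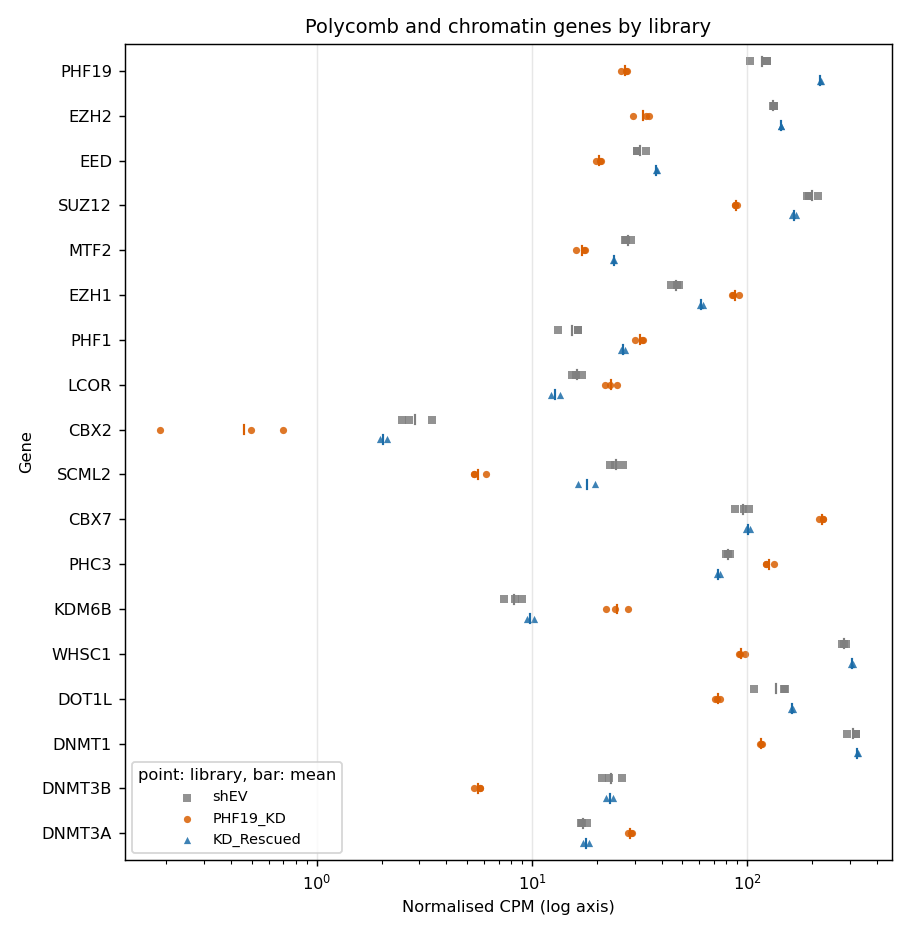
Normalised CPM of 18 Polycomb, histone and DNA methylation genes on a log axis, with 1 point per library, a bar for the group mean, and colours and shapes for the 3 groups. Knockdown points lie left of the rescue points for EZH2, SUZ12, WHSC1 and DNMT1, and right of them for EZH1, CBX7, KDM6B and DNMT3A.

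PRC1, the partner complex that ubiquitinates histone H2A and reads H3K27me3 through its CBX subunits, also had members on both sides. Of 24 tested members, 9 rose and 7 fell, counts that turned to 8 and 9 under upper-quartile scaling and to 6 and 8 with a filter at 5 CPM. At 37.5% and 29.2%, the shares lay near the 33.9% and 29.5% of all tested genes. CBX2 was near the detection limit in the knockdown at 0.186, 0.496 and 0.694 CPM and stood at 2.12 and 1.96 in the rescue (log2 fold change 2.12, SE 0.36, adjusted p = 2.58e-04). CBX7, its counterpart in many differentiated cells, fell from 224, 224 and 216 CPM to 98.7 and 103 (log2 fold change -1.13, SE 0.062, adjusted p = 1.32e-08), close to the shEV values of 101, 96.4 and 87.8. SCML2 rose by 1.68 and SCMH1 by 0.74, whereas PHC3 fell by 0.77 on the log2 scale. Values of CBX7, SCML2, SCMH1 and PHC3 are uncertain because reads were divided among genes.

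Among genes that act against H3K27me3 or write active marks, 5 of 16 rose and 5 fell, shares close to those of all genes. The falls numbered 9 under upper-quartile scaling and 8 without shEV replicate 3. KDM6B, an H3K27 demethylase, fell from 24.3, 27.8 and 22.1 CPM to 9.48 and 10.2 (log2 fold change -1.33, SE 0.12, adjusted p = 8.56e-07), and the groups did not overlap. KDM6A, the other main demethylase, was not called (log2 fold change -0.15, adjusted p = 0.0841), but was called in 5 other settings: upper-quartile scaling (-0.30), the 5 compared libraries alone (-0.19), a filter at 5 CPM (-0.24), and without knockdown replicate 2 (-0.19) or shEV replicate 3 (-0.15). WHSC1 (NSD2), the H3K36 methyltransferase known from myeloma with a translocation of its locus, rose from 97.4, 91.7 and 93.0 CPM to 309 and 302. DOT1L, the H3K79 methyltransferase, rose by 1.14, and the H3K36 writer ASH1L fell by 0.64. Divided reads make the values of WHSC1, DOT1L and ASH1L uncertain.

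HOX and other developmental regulators are classic PRC2 targets, and few HOX genes were expressed. Of 39 HOX genes, 8 could be tested, and 5 (62.5%) fell and none rose (median -0.76), beside 29.5% and 33.9% of all tested genes. By DESeq2 3 fell, with a filter at 5 CPM 1 fell, and 1 rose without shEV replicate 3 or knockdown replicate 1. HOXB3 fell from 8.84, 10.42 and 8.85 CPM to 5.86 and 6.18. HOXB9 fell from 0.837, 2.23 and 1.39 CPM to 0 and 0.125, with a log2 fold change of -4.44 that went to -3.50 and -7.65 without rescue replicate 1 or 2. Of 32 developmental transcription factors, 13 (40.6%) rose and 4 (12.5%) fell, beside 33.9% and 29.5% of all tested genes. With a filter at 5 CPM these counts were 5 and 2. PROX1 fell below its shEV level (7.26, 7.03 and 7.11 CPM in the knockdown, 1.91 and 1.88 in the rescue, 4.66, 4.20 and 4.78 in shEV). SOX2 went the other way, from 7.91, 7.53 and 7.72 CPM to 22.9 and 21.8, and IRX5 from 0.186, 0.579 and 0.434 to 3.24 and 2.75. Of these, HOXB3, SOX2 and IRX5 had divided reads and are uncertain.

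DNA methylation enzymes also changed. Of 16 tested, 11 (68.8%) rose and 4 (25.0%) fell, or 2 without rescue replicate 1. Among all tested genes 33.9% rose and 29.5% fell. The maintenance methyltransferase DNMT1 went from 116, 115 and 117 CPM to 324 and 325 (log2 fold change 1.49, SE 0.052, adjusted p = 2.55e-10), and the de novo enzyme DNMT3B from 5.396, 5.71 and 5.72 to 22.1 and 23.7. The other de novo enzyme, DNMT3A, fell from 29.1, 27.8 and 28.8 CPM to 18.5 and 17.2. The shEV values were 322, 318 and 289.8 for DNMT1, 26.2, 22.8 and 21.2 for DNMT3B and 18.0, 17.04 and 16.9 for DNMT3A, close to the rescue values in each case. The value of DNMT1 is uncertain because its reads were divided among genes.

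Replication genes rose almost as a block. Before replication, ORC, CDC6 and CDT1 load the MCM helicase onto origins, and cells that have left the cycle let these genes go silent under E2F and RB-family repressors. In the licensing list, 22 of 23 tested members rose and none fell (median 2.87). In the list of replicative polymerases and clamp genes all 24 rose (median 2.17). In bulk RNA, fewer cells of a type, such as cycling cells, and less RNA per cell cannot be told apart. MCM6, a helicase subunit, went from 31.2, 32.1 and 31.2 CPM to 229 and 231 (log2 fold change 2.87, SE 0.053, adjusted p = 2.43e-12), and MCM10 from 3.26, 2.32 and 3.30 to 46.4 and 44.3. Both stayed below shEV, where MCM6 stood at 305, 314 and 331 and MCM10 at 61.8, 62.8 and 66.7. ORC1, an origin-binding subunit, rose from 3.16, 3.31 and 3.30 to 49.2 and 51.4, and PCNA, the sliding clamp, by 2.44 to a level that was still 64.2% of shEV. The value of PCNA is uncertain because its reads were divided among genes.

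E2F genes rose as well. Of 19 E2F, RB and DREAM factors, 15 rose and 2 fell, or 1 without rescue replicate 2. E2F1, the activator that opens S phase, stood at 7.63, 8.02 and 7.198 CPM in the knockdown and 119.8 and 122.98 in the rescue (log2 fold change 3.99, SE 0.094, adjusted p = 1.09e-11), with no overlap. MYBL2, which hands over from S phase to mitosis, rose 17.6-fold, and FOXM1, the mitotic activator, 9.04-fold. RBL2 (p130), the pocket protein of resting cells, fell from 187, 174 and 179 CPM to 140.4 and 144, while RB1 rose from 21.8, 22.0 and 23.0 to 32.3 and 31.0. Among G1 genes CCND2, the D-type cyclin driven by MAF in myeloma, rose from 131, 125 and 122.7 to 344 and 319.6 CPM, short of the 517, 528 and 491 in shEV. CCNG2, a cyclin of arrested cells, fell by 1.34 on the log2 scale. CDKN1C, the p57 inhibitor, fell from 7.26, 6.62 and 6.94 CPM to 1.58 and 2.09, CDKN1B (p27) fell by 0.35, and SKP2 and CKS1B, which help to degrade p27, rose by 1.17 and 2.05. Values of FOXM1, RBL2, CCND2, SKP2 and CKS1B are uncertain because reads were divided among genes.

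E2F proteins bind a short GC-rich element that lies in many replication gene promoters. Promoters were taken from RefSeq on GRCh38.p14, 250 bases before to 50 after each gene start, and both strands were searched for TTTCCCGC, TTTGGCGC, TTTGCCGC and TTTCGCGC. Of the 20 licensing genes with an entry, 55.0% held a match and of the 22 polymerase and clamp genes 31.8%, against 3.33% of all 27305 promoters of the table. The lists hold tested genes only, while the 27305 promoters include genes that were not tested. Only 10831 tested genes had a promoter, and the share among those was not computed. List membership and expression are therefore mixed in this and the later promoter shares. The 250 bases before the start are shown for E2F1 and MCM6 with matches in capitals, because both rose strongly and hold more than 1 match. The E2F1 stretch is chr20:33686386-33686635 on the minus strand and the MCM6 stretch chr2:135876444-135876693 on the minus strand, each written 5′ to 3′ on the gene's strand. A match describes letters and is not evidence of binding.
E2F1: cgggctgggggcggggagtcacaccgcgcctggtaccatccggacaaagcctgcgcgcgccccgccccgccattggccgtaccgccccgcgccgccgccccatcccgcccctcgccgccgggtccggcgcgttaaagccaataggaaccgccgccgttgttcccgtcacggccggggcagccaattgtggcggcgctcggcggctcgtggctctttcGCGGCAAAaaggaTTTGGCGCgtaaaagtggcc
MCM6: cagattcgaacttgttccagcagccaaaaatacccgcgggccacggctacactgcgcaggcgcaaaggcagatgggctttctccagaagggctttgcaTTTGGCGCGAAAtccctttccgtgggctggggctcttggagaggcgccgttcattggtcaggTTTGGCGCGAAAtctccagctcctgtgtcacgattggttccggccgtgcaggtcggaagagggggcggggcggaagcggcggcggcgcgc

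Nucleotide supply rose along with replication. Of 23 tested genes, 19 rose and 3 fell. TYMS, which makes thymidylate, went from 19.5, 19.1 and 18.7 CPM to 288 and 297 (log2 fold change 3.94, SE 0.053, adjusted p = 3.10e-13), and TK1, the salvage kinase, from 16.7, 17.9 and 21.9 to 126 and 128. The small ribonucleotide reductase subunit of resting cells, RRM2B, ran against the list and fell from 21.7, 23.0 and 24.3 CPM to 13.5 and 12.1. IMPDH2, of guanine nucleotide synthesis, fell by 0.48. Divided reads make the values of TYMS and IMPDH2 uncertain.

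All 37 tested members of the mitotic cyclin and kinase list rose (median 2.90), and so did 35 of 37 centromere and kinetochore genes (median 2.59), with no member of either falling. CDK1, the kinase that drives mitosis, went from 19.9, 14.97 and 17.5 CPM to 118 and 117 (log2 fold change 2.76, SE 0.10, adjusted p = 6.33e-10). TOP2A, which untangles sister chromosomes, went from 88.0, 82.6 and 86.5 to 532 and 539, above shEV at 413, 432 and 493. CENPF, a kinetochore protein of G2 cells, was also above shEV (304 and 310.5 CPM against 219, 215 and 245), after 53.7, 48.1 and 48.5 in the knockdown. Rescue and knockdown libraries did not overlap for any of these genes, as for 77.2% of all tested genes. ZWINT rose 14.8-fold and CENPA, the centromeric histone, 8.65-fold. The value of CENPA is uncertain because its reads were divided among genes.

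Many late cell cycle promoters carry a CHR element, TTTGAA, often beside CCAAT boxes. TTTGAA on either strand was found in 40.0% of the 30 centromere and kinetochore promoters in the table, against 15.4% of all promoters, and CCAAT in 60.0% against 35.7%. These shares are not particular to lists that rose. In the MHC class II list, where 13 of 18 tested genes fell, 40.0% of 15 promoters held TTTGAA and 73.3% held CCAAT. No share is given for the mitotic cyclin and kinase list because only 78.4% of it had an entry, below the 80% required. The 250 bases before the start are printed for CDK1 (chr10:60778228-60778477 on the plus strand) and TOP2A (chr17:40417897-40418146 on the minus strand), each with 2 matches of TTTGAA or its complement in capitals.
CDK1: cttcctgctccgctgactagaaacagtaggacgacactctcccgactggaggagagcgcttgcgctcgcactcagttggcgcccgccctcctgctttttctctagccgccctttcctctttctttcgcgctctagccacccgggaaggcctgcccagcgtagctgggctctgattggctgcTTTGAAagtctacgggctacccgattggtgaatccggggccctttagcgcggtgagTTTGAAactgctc
TOP2A: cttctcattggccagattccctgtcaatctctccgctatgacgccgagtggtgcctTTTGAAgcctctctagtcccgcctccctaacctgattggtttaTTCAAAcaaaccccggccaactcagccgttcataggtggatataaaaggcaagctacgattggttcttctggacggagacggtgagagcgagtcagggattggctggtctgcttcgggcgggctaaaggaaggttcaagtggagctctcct

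All 26 tested genes of homologous recombination and the Fanconi pathway rose (median 2.37). BRCA1, which directs breaks into recombination, went from 9.77, 8.19 and 8.59 CPM to 97.9 and 99.1 (log2 fold change 3.48, SE 0.075, adjusted p = 6.13e-12), with no overlap between the groups. Histone genes gave no such uniform picture: 7 of 31 (22.6%) rose and 10 (32.3%) fell, counts that turned to 5 and 3 with a filter at 5 CPM. The share that fell lay near the 29.5% of all tested genes, of which 33.9% rose. The variant H2AFZ rose by 1.87, and H2AFJ, a variant known from arrested cells, fell from 12.7, 14.1 and 12.6 CPM to 4.66 and 5.09. HIST1H2AC, a histone H2A gene of the large cluster, fell from 3.81, 5.13 and 5.55 to 1.248 and 0.793. Uncertainty from divided reads applies to H2AFZ, H2AFJ and HIST1H2AC.

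In the MYC network both MYC and several of its antagonists fell. Proteins of the MXD family compete with MYC for a shared partner and repress its targets. MXD1, MXD4 and MXI1 fell by 1.01, 1.19 and 1.23 on the log2 scale, and MXI1 reached 33.5 and 31.2 CPM from 74.5, 76.7 and 76.7, below the 49.6, 49.9 and 49.96 of shEV. MXD3, a family member of S phase cells, rose from 9.68, 9.43 and 11.6 CPM to 46.1 and 52.0, above its shEV values of 26.2, 20.8 and 20.5. MYC fell from 626, 633 and 631 to 457 and 454 CPM (log2 fold change -0.47, SE 0.049, adjusted p = 3.96e-06), while knockdown and shEV (617, 627 and 569) overlapped. MYCN was at about 1 count per library in the knockdown (0.093, 0.0827 and 0.0867 CPM) and at 2.20 and 1.54 after rescue. Over the list, 3 of 12 (25.0%) rose and 5 (41.7%) fell, or 8 under upper-quartile scaling. Among all tested genes 33.9% rose and 29.5% fell. Part of the reads of MXD1, MXI1 and MXD3 was divided among genes, so those values are uncertain.

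Ribosome assembly genes and ribosomal protein genes went in opposite directions. Of 39 nucleolar factors, 38 rose and none fell (median 0.62), while 75 of 82 cytosolic ribosomal protein genes fell and 1 rose (median -0.66). NCL (nucleolin) went from 379.7, 358 and 381 CPM to 729.6 and 730.0 (log2 fold change 0.97, SE 0.050, adjusted p = 7.86e-09), and NOP56, of the box C/D complex, from 214, 212 and 213 to 434 and 452. LYAR, a nucleolar regulator of rRNA synthesis, rose 3.88-fold. RPL23 fell from 2043, 2072 and 2077 CPM to 867 and 891 (log2 fold change -1.23, SE 0.045, adjusted p = 4.01e-10), below the 1117, 1067 and 1144 of shEV, and RPS6 by 0.80. The translation factors EEF1A1 and EEF2, whose mRNAs share the terminal oligopyrimidine start of ribosomal protein mRNAs, fell by 0.60 and 0.77. The sole ribosomal protein gene that rose was RPL39L, a paralog with a restricted pattern, from 12.9, 13.0 and 12.8 to 28.6 and 29.8. Values of NCL, NOP56, RPL23, RPS6 and RPL39L are uncertain because reads were divided among genes.

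Respiratory chain genes divided by genome. All 13 tested mitochondrially encoded protein genes had negative fold changes and 12 were called (median -0.84), and every one was above shEV by the test (13 of 13, against 20.7% of all genes higher than shEV). MT-CO1, a catalytic subunit of cytochrome oxidase, stood at 28380.1, 25872 and 27801 CPM in the knockdown, 13082 and 13553 in the rescue and 9814, 8850.4 and 9735 in shEV. MT-ND1 of complex I stood at 3738, 3369 and 3636 CPM in the knockdown, 1658 and 1772 in the rescue and 857, 692 and 774 in shEV, so the rescue libraries lay between both other groups for each gene. Of 79 nuclear-encoded subunits, 55 rose and 7 fell (median 0.33), and of 77 mitochondrial ribosomal proteins 54 rose and 4 fell (median 0.41). Under upper-quartile scaling these counts were 38 and 12, and 43 and 7. ATP5G1, a gene for the c-subunit of ATP synthase, went from 49.2, 51.5 and 50.9 CPM to 129.5 and 130.1, and ATP5B rose by 0.47. Divided reads make the values of MT-ND1 and ATP5G1 uncertain.

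Anabolic genes rose broadly. Of 20 cytosolic aminoacyl-tRNA synthetases 16 rose and 2 fell, of 20 amino acid transporters 14 rose and 2 fell, and of 14 serine and one-carbon genes 10 rose and 2 fell (medians 0.71, 0.93 and 1.02). Without rescue replicate 2 the transporter and serine lists each had 1 fall, as had the transporters without rescue replicate 1 or knockdown replicate 2 or 3. PHGDH, the entry enzyme of serine synthesis, went from 4.09, 3.31 and 3.90 CPM to 44.5 and 44.2 (log2 fold change 3.56, SE 0.12, adjusted p = 1.57e-10), which was 63.0% of the shEV mean. ALDH1L2, of mitochondrial folate metabolism, went from 11.2, 10.1 and 11.7 to 120.0 and 121, within the shEV values of 118, 114 and 127. The leucine carrier SLC7A5 rose by 1.68 and the cystine carrier SLC7A11 by 2.75, while SLC7A7, which exports cationic amino acids, fell by 1.15. The ATF4 list was mixed, with 8 of 15 (53.3%) up and 4 (26.7%) down, beside 33.9% and 29.5% of all tested genes. ATF4 rose from 197, 197 and 201 CPM to 485 and 493, past shEV at 356, 351 and 364, and PPP1R15A, a phosphatase regulator it induces, fell by 0.81. DDIT4, an inhibitor of mTORC1, fell from 47.3, 49.4 and 42.9 CPM to 19.9 and 17.9. Of these, ALDH1L2, SLC7A5, SLC7A11, ATF4 and DDIT4 had divided reads and are uncertain.

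In the secretory machinery of the plasma cell, most tested folding genes rose and most stood above their empty vector level. Of 37 endoplasmic reticulum folding genes, 32 rose and 4 fell (median 1.03). By the test 28 of 37 were above shEV and 6 below it, beside 20.7% and 19.1% of all tested genes. HSPA5 (BiP), the main chaperone of the compartment, stood at 662, 643 and 652 CPM in the knockdown, 1319.5 and 1340.3 in the rescue and 738, 756 and 833 in shEV, and both rescue libraries lay above all others (log2 fold change 1.03, SE 0.052, adjusted p = 6.40e-09). FKBP11, a prolyl isomerase of secretory cells, went from 62.7, 64.7 and 63.0 to 303 and 305 against 184, 188 and 174 in shEV. MZB1, a cochaperone of plasma cells, rose by 1.23. The sensor ERN1 (IRE1) and its target XBP1 ran against the list: ERN1 fell from 416, 388 and 399.6 CPM to 169 and 162, and XBP1 from 1336, 1376 and 1379 to 877 and 894, both below every shEV library. Uncertainty from divided reads applies to HSPA5, MZB1 and XBP1.

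The unfolded protein response acts through the ER stress response element, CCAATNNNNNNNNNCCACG, which contains a CCAAT box. It was found on either strand in 21.2% of the 33 promoters of the list and in 0.0806% of all 27305, while CCAAT alone was found in 78.8% and 35.7%. The stretches before the start of HSPA5 (chr9:125241344-125241593 on the minus strand, 1 match) and HSP90B1 (chr12:103930160-103930409 on the plus strand, 2 matches) are shown because both genes are known for this element and rose. HSP90B1, the ER member of the HSP90 family, went from 1325, 1290.4 and 1289.6 CPM to 2706 and 2812.
HSPA5: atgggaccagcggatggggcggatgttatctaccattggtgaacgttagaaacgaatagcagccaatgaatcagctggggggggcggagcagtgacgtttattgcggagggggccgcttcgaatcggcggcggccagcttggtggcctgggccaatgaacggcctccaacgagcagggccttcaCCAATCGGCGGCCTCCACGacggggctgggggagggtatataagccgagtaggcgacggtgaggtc
HSP90B1: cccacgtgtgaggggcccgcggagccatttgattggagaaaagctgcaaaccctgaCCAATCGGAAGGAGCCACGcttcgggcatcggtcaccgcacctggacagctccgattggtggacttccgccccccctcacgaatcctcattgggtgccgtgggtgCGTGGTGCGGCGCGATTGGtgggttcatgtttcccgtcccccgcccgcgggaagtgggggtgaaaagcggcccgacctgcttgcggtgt

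Protein quality control genes of the cytosol rose too. Of 46 proteasome genes 40 rose (median 0.53), and the falls ranged from 0 to 2 when a library was left out, against 1 with all. PSMB5, the catalytic subunit that bortezomib inhibits, went from 34.3, 38.8 and 39.9 CPM to 50.9 and 49.8. Of 21 heat shock chaperones 15 rose and 1 fell (median 0.70). HSPA8, the constitutive HSP70, went from 872, 885 and 887 CPM to 2331 and 2320.2, above shEV at 1668, 1730.0 and 1866. The value of HSPA8 is uncertain because its reads were divided among genes.

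Metabolic lists were mixed. Of 25 glycolysis and hexose uptake genes 14 (56.0%) rose and 8 (32.0%) fell, beside 33.9% and 29.5% of all tested genes. LDHA, which makes lactate, went from 278, 283 and 283 CPM to 1073 and 1080.4 (log2 fold change 1.94, SE 0.042, adjusted p = 6.40e-12), and the brain-type aldolase ALDOC fell from 32.5, 37.7 and 35.6 to 12.9 and 11.8. SLC2A5, a fructose carrier, was at 19.2, 22.2 and 20.2 CPM in the knockdown and at 0.208 and 0.292 in the rescue (log2 fold change -6.32, SE 0.20, adjusted p = 1.17e-10). Cholesterol synthesis had 14 of 24 (58.3%) up and 3 (12.5%) down. TM7SF2, a sterol C14 reductase, fell from 38.9, 41.2 and 41.5 CPM to 5.57 and 6.55. TFRC, the transferrin receptor, rose by 1.33 and the iron storage chain FTL fell by 0.61. Values of LDHA, ALDOC and FTL are uncertain because reads were divided among genes.

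More lipid export and lysosomal genes fell than rose. Of 13 LXR targets and lipoprotein genes 7 (53.8%) fell and 3 (23.1%) rose, beside 29.5% and 33.9% of all tested genes. LRP1, an endocytic receptor for lipoproteins, went from 32.3, 37.2 and 39.8 CPM to 1.04 and 0.709 (log2 fold change -5.37, SE 0.17, adjusted p = 8.81e-11), just under the 1.31, 1.42 and 1.18 of shEV. ABCA1, the cholesterol exporter, went from 33.6, 30.0 and 32.9 to 6.78 and 6.59, still above shEV at 2.76, 2.78 and 3.13. SREBF1, the lipogenic factor induced by LXR, went from 170.3, 179 and 166 to 38.8 and 36.8. Of 31 lysosome genes 21 fell and 3 rose (median -0.42). GAA, which degrades glycogen, fell from 29.3, 28.8 and 28.4 CPM to 4.62 and 4.38 (log2 fold change -2.68, SE 0.10, adjusted p = 3.10e-10), and GRN (progranulin) from 305, 321 and 288 to 85.8 and 86.6. ASAH1, the acid ceramidase, fell from 311, 322 and 308 to 114 and 108, whereas GLA, an alpha-galactosidase, rose from 16.2, 19.3 and 19.6 to 43.4 and 45.4. The value of ASAH1 is uncertain because its reads were divided among genes.

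**Figure D3:**
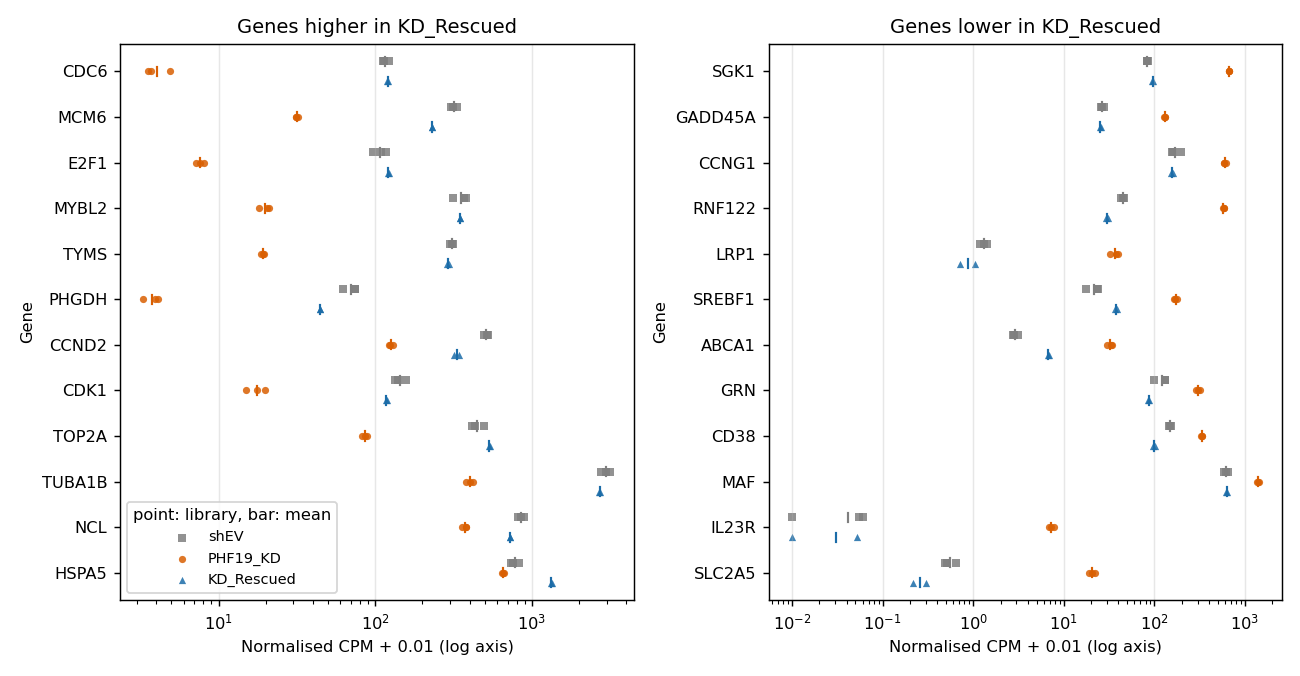
Normalised CPM plus 0.01 on log axes for 12 genes that rose (left) and 12 that fell (right) in KD_Rescued against PHF19_KD, with 1 point per library and a bar for each group mean. Rescue points lie apart from the knockdown points in every row, as for 77.2% of all tested genes. For HSPA5 the rescue points also lie to the right of the shEV points.

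Most tested genes of the quiescence and glucocorticoid lists fell. Of 22 FOXO factors and quiescence-linked genes 16 fell and 2 rose (median -0.68), and of 10 glucocorticoid receptor genes 8 fell and 1 rose. The quiescence list had 1 rise without knockdown replicate 2 or either rescue library. SGK1, a kinase gene induced by glucocorticoids, went from 661, 664 and 668 CPM to 97.5 and 94.6 (log2 fold change -2.79, SE 0.047, adjusted p = 1.28e-12), against 82.4, 81.8 and 84.6 in shEV. PIK3IP1, an inhibitor of PI3 kinase, went from 85.8, 84.5 and 87.8 to 14.97 and 18.8, and YPEL3, a growth suppressor, from 118, 122 and 122 to 37.8 and 38.8. GADD45A, of the DNA damage response, went from 131, 132 and 127 CPM to 24.9 and 25.4, and CCNG1, a cyclin of the DNA damage response, from 609, 588 and 593 to 153 and 161. The knockdown libraries of all 5 genes lay above those of both other groups. TXNIP, the thioredoxin inhibitor, fell only to 270.3 and 273 CPM from 412, 408 and 409, with shEV at 138, 142 and 159.7. FKBP5, a glucocorticoid target, rose from 30.9, 33.0 and 29.0 to 75.6 and 72.9, against the direction of that list. PMAIP1 (NOXA), a BH3-only gene, rose by 1.67. The value of YPEL3 is uncertain because its reads were divided among genes.

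Immediate early genes respond within minutes to growth factors and to stress. Of 27 tested, 18 fell and 4 rose (median -0.55). FOS stood at 17.9, 19.8 and 18.4 CPM in the knockdown, 0.125 and 0.125 in the rescue and 6.06, 7.38 and 6.02 in shEV (log2 fold change -7.15, SE 0.22, adjusted p = 1.06e-10). EGR1 was at 2.42, 2.65 and 1.47 CPM in the knockdown, 0 and 0.0417 in the rescue and 0.181, 0.253 and 0.354 in shEV. JUN was at 76.8, 82.4 and 80.0 CPM in the knockdown, 37.2 and 38.9 in the rescue and 52.4, 55.4 and 42.6 in shEV. For FOS, EGR1 and JUN the rescue libraries were the lowest of all 8. FOSL2 rose from 7.63, 7.03 and 7.37 CPM to 14.9 and 15.4, and DUSP4, a feedback phosphatase of the MAP kinases, from 59.5, 61.7 and 61.8 to 112 and 111.

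Of 12 tested genes of the BCL2 family, which sets the threshold for cell death, 4 (33.3%) rose and 5 (41.7%) fell, beside 33.9% and 29.5% of all tested genes. The falls numbered 8 without shEV replicate 3 and under upper-quartile scaling. MCL1, on which myeloma cells often depend, went from 738, 726 and 738 CPM to 350.4 and 347 (log2 fold change -1.07, SE 0.047, adjusted p = 1.77e-09), and BCL2, the venetoclax target, from 158, 162 and 168 to 69.5 and 73.4. BCL2L1 (BCL-XL) rose from 154, 155 and 158 to 245 and 253. Among the BH3-only killers BMF, BCL2L11 (BIM) and BBC3 (PUMA) fell by 0.90, 0.74 and 1.36, and BCL2 and BCL2L11 ended below every shEV library. The value of BCL2L1 is uncertain because its reads were divided among genes.

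Plasma cell markers changed in both directions. All 12 could be tested, at a summed 5969 to 6054 CPM of the column totals in the knockdown and 5167 to 5193 in the rescue, and 6 rose and 6 fell. IRF4, the master factor on which myeloma depends, went from 404, 388 and 389 CPM to 574 and 584 (log2 fold change 0.56, SE 0.041, adjusted p = 1.95e-07). MAF, the translocated oncogene of this line, fell from 1429.8, 1357 and 1389 to 639 and 615 and lay within the shEV values (653, 624 and 579). Of 11 genes in the MAF list, MAF included, 5 (45.5%) rose and 5 (45.5%) fell. Its targets CCND2 and CCR1 rose, the latter from 121, 127 and 127 to 171 and 172 CPM. AHNAK, another of them, was lower in the rescue (25.9 and 25.8 CPM) than in the knockdown (66.0, 55.1 and 63.7) and far below shEV (189, 205 and 207). BACH2, a repressor of the plasma cell programme, fell from 17.6, 17.04 and 18.5 to 10.1 and 9.85. The value of CCND2 is uncertain because its reads were divided among genes.

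Of 19 surface antigens 5 (26.3%) rose and 11 (57.9%) fell, beside 33.9% and 29.5% of all tested genes. Antigens used as drug targets were on both sides. TNFRSF17 (BCMA) went from 121, 115 and 118 CPM to 189.6 and 193 (log2 fold change 0.70, SE 0.056, adjusted p = 3.89e-07) and GPRC5D from 8.28, 7.61 and 8.07 to 21.6 and 19.5, short of the 38.7, 40.9 and 41.3 in shEV. CD38, the daratumumab target, fell from 337, 327 and 332 CPM to 101 and 97.2 (log2 fold change -1.75, SE 0.047, adjusted p = 2.77e-11), below every shEV library. FCRL5 fell from 5.30, 4.72 and 5.03 to 0.291 and 0.334 and SDC1 (CD138) from 1007, 1064 and 999.8 to 669.8 and 684. CXCR4, the bone marrow homing receptor, went from 24.9, 21.4 and 26.0 CPM to 77.9 and 74.1. The value of CD38 is uncertain because its reads were divided among genes.

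Antibody transcripts took a larger share after rescue. Immunoglobulin genes took 2.01% ± 0.05 (SD, n = 3) of the counts in the knockdown and 2.998% ± 0.08 (n = 2) in the rescue, against 3.94% ± 0.12 (n = 3) in shEV, with no overlap. Of 32 tested chains 13 (40.6%) rose and 6 (18.8%) fell, or 3 without rescue replicate 1. Among all tested genes 33.9% rose and 29.5% fell. The lambda constant gene IGLC1 went from 6702, 7020.2 and 6987 CPM to 9868 and 10589 (log2 fold change 0.57, SE 0.058, adjusted p = 3.45e-06), and IGJ, the joining chain, from 2739, 2856 and 2793 to 5735 and 5608. Of these, IGLC1 and IGJ had divided reads and are uncertain.

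Of 25 adhesion and homing genes 8 (32.0%) rose and 10 (40.0%) fell, beside 33.9% and 29.5% of all tested genes. Of 30 collagen and collagen-processing genes 13 (43.3%) fell and 3 (10.0%) rose, or 7 and 1 with a filter at 5 CPM. ADAMTS2, a procollagen peptidase, stood at 0.093, 0 and 0.0867 CPM in the knockdown, 0.181, 0.506 and 0.177 in shEV and 11.9 and 12.6 in the rescue, so it was raised in the rescue libraries beyond both other groups. FN1 (fibronectin) went from 7.44, 7.45 and 8.76 to 29.0 and 29.4, also above shEV at 12.1, 12.3 and 10.3. COL9A2 fell from 32.4, 30.3 and 32.4 CPM to 11.1 and 11.0. PDGFRB, a receptor of mesenchymal cells, fell from 7.81, 7.94 and 7.198 to 0.582 and 1.13. The fibroblast marker list of 7 genes summed to 9.94 to 10.8 CPM in the knockdown and 0.973 to 1.56 in the rescue, with LUM and PDGFRA at 0 in all libraries, and its part in these results was not tested.

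Most tested interferon-stimulated genes fell. Type I interferon switches on a set of antiviral genes through the ISRE element in their promoters. Of 49 tested, 32 (65.3%) fell and 6 (12.2%) rose (median -0.60), beside 29.5% and 33.9% of all tested genes. By the test 25 of 49 were above shEV, beside 20.7% of all tested genes. IFI6, an antiapoptotic mitochondrial protein, stood at 48.7, 55.2 and 58.3 CPM in the knockdown, 11.8 and 12.1 in the rescue and 3.53, 4.05 and 2.83 in shEV (log2 fold change -2.18, SE 0.11, adjusted p = 4.73e-09). MX1, an antiviral GTPase, stood at 61.1, 59.6 and 58.0 CPM in the knockdown, 47.9 and 49.0 in the rescue and 12.3, 11.0 and 12.03 in shEV. The 3 groups did not overlap for either gene, and the rescue values of MX1 lay nearer to the knockdown while those of IFI6 lay nearer to shEV. IFIT1, which binds viral RNA, went from 6.14, 8.44 and 7.63 CPM to 1.79 and 1.46, and DHX58, an RNA helicase sensor, from 14.1, 16.4 and 14.1 to 3.74 and 4.59. ISG20 and HERC5 rose, by 0.74 and 0.68. The value of MX1 is uncertain because its reads were divided among genes.

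The ISRE core was searched as GAAANNGAAA on both strands and was found in 3.65% of all promoters. No share is given for the interferon list, of which 79.6% had an entry. The stretches before the start of IFI6 (chr1:27672193-27672442 on the minus strand, 3 matches) and IFIT1 (chr10:89392373-89392622 on the plus strand, 2 matches) are shown as members that fell.
IFI6: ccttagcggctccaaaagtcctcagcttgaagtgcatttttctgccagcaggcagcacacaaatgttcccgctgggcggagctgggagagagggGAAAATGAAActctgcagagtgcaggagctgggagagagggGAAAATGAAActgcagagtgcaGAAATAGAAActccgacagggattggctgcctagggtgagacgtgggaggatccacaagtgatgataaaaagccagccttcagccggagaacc
IFIT1: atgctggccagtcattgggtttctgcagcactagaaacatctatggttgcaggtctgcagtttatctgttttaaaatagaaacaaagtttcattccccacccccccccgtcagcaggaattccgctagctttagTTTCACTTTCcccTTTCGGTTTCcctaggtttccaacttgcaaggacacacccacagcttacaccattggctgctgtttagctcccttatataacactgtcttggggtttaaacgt

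Antigen presentation genes mostly fell. Of 19 MHC class I genes 14 fell, or 9 without rescue replicate 1, and 2 rose, the rises being the ER chaperones CALR and PDIA3. B2M, the invariant light chain, went from 2979, 2939 and 2991 CPM to 1605 and 1599 (log2 fold change -0.89, SE 0.063, adjusted p = 1.40e-07), below every shEV library. HLA-E, a ligand of NK cell receptors, went from 588, 608 and 597 to 289 and 296, above shEV at 239.8, 246 and 237. Of 18 class II genes 13 (72.2%) fell and 2 (11.1%) rose, and 14 were above shEV. Among all tested genes 29.5% fell, 33.9% rose and 20.7% were above shEV. HLA-DOB, a modulator of peptide loading, went from 24.4, 24.3 and 27.4 CPM to 6.07 and 6.84, with 3.03, 3.29 and 3.83 in shEV. CIITA, the class II master activator, rose from 50.5, 45.4 and 47.6 to 64.3 and 61.7. Part of the reads of CALR, PDIA3, HLA-E, HLA-DOB and CIITA was divided among genes, so those values are uncertain.

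Cytokine signalling was mixed. Of 27 NF-kB genes 9 (33.3%) rose and 12 (44.4%) fell, beside 33.9% and 29.5% of all tested genes. Of 25 IL-6, JAK and STAT3 genes 7 (28.0%) rose and 13 (52.0%) fell, the rises numbering 4 under upper-quartile scaling. IL6R, the receptor for the main growth factor of myeloma, rose from 186, 187 and 191 CPM to 384 and 383 (log2 fold change 1.03, SE 0.041, adjusted p = 8.55e-10), while STAT3 fell from 89.8, 86.7 and 90.7 to 52.0 and 54.1 and the kinase PIM2 from 982, 1002 and 1001 to 651 and 675. IL23R, a receptor of another cytokine family, stood at 7.26, 7.78 and 6.76 CPM in the knockdown against 0 and 0.0417 in the rescue and 0.0452, 0.0506 and 0 in shEV, where those other libraries held 1 count or none. CCL3, a chemokine that myeloma cells secrete, rose from 295, 316 and 308 to 632 and 658, and BIRC3, an NF-kB target, fell from 229, 214 and 214 to 85.7 and 84.1. TRAF1 kept part of its knockdown level (52.4, 42.2 and 47.6 CPM, then 24.3 and 26.3, against 6.19, 5.01 and 5.19 in shEV). Values of STAT3, CCL3 and BIRC3 are uncertain because reads were divided among genes.

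**Figure D4:**
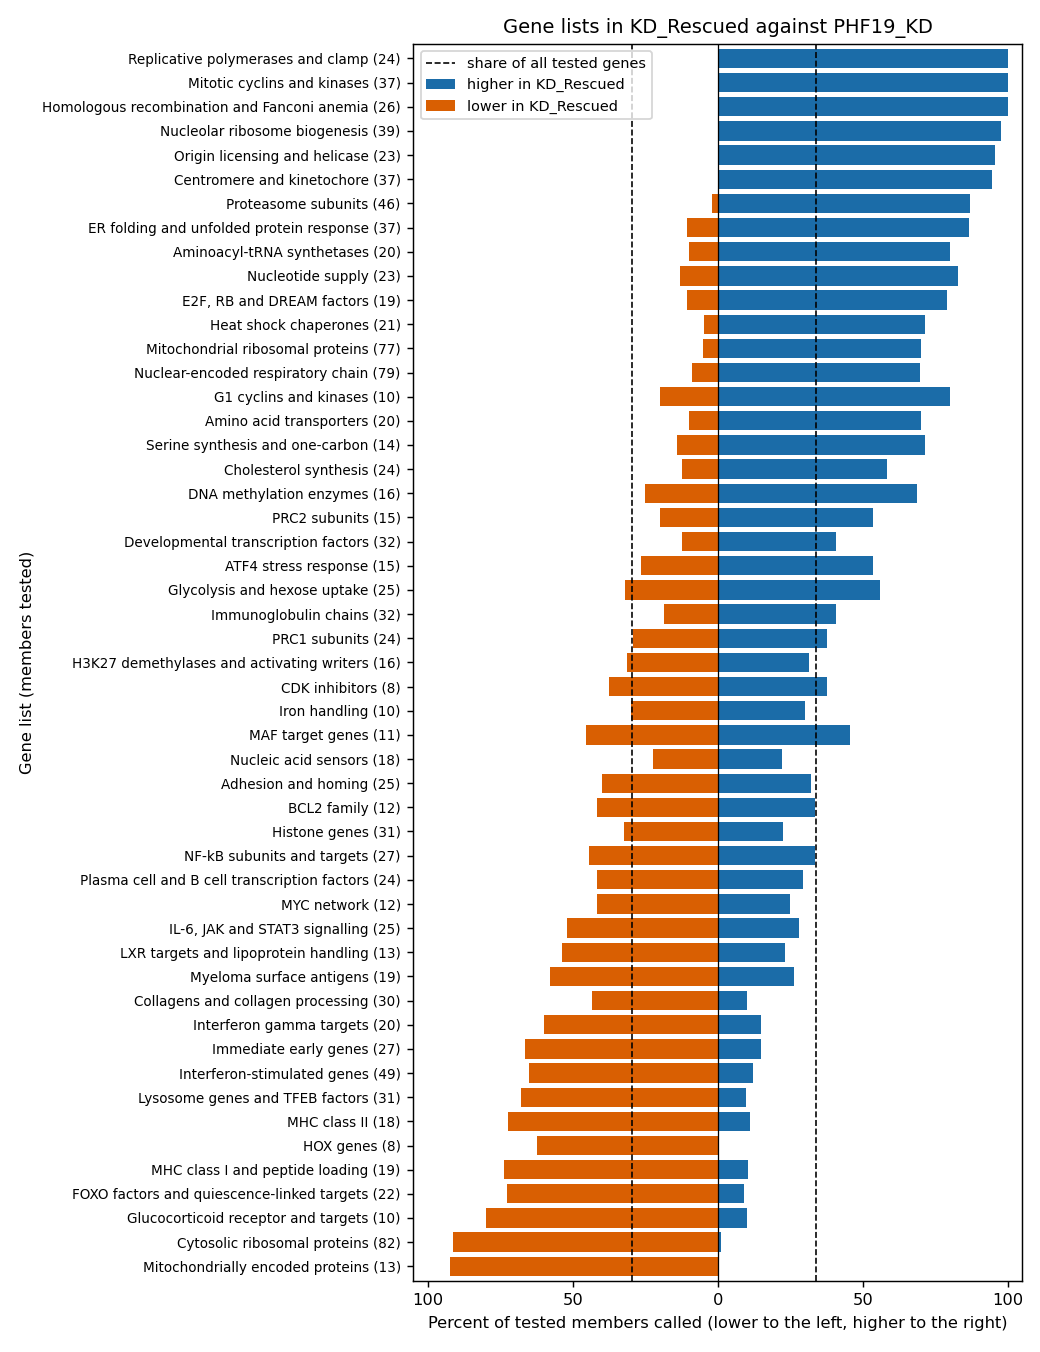
Percent of the tested members of each gene list shown called lower (left) or higher (right) in KD_Rescued than in PHF19_KD, with the number tested in brackets and dashed lines at the shares of all tested genes, 29.5% and 33.9%. Licensing, polymerase, mitotic, centromere, recombination and ribosome biogenesis lists reach past 90% higher, and ribosomal protein and mitochondrially encoded lists past 90% lower.

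Some of the largest changes lay outside these lists. RNF122, a membrane ubiquitin ligase, went from 567, 580.1 and 582 CPM in the knockdown to 29.5 and 31.1 (log2 fold change -4.25, SE 0.059, adjusted p = 3.28e-13), below the 42.6, 46.5 and 44.5 of shEV. MYB, the haematopoietic factor of proliferating progenitors, went from 2.51, 2.32 and 2.17 to 46.1 and 45.9 (log2 fold change 4.30, SE 0.095, adjusted p = 6.88e-12). DAPK2, a death-associated kinase, fell to 0.0832 and 0.125 CPM from 7.63, 6.45 and 7.28, and CYP1A1, a target of the aryl hydrocarbon receptor, to 0.25 and 0.292 from 13.7, 11.5 and 12.9. ADARB1, an RNA-editing deaminase, fell to 1.66 and 2.25 from 47.4, 48.6 and 47.0, well under its shEV values of 15.8, 16.8 and 16.04. By change in CPM, the tubulin gene TUBA1B was among the largest rises, from 378, 402 and 423 to 2698 and 2720.1, with GAPDH from 1352, 1433 and 1443 to 3327 and 3285. The mitochondrial ribosomal RNA MT-RNR2 was among the largest falls, from 12465, 11529.5 and 12119.8 to 4144 and 4353. Divided reads make the values of MYB, TUBA1B, GAPDH and MT-RNR2 uncertain.

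Noncoding RNAs also moved. MALAT1, a nuclear long noncoding RNA, stood at 355, 298 and 317 CPM in the knockdown, 226 and 237 in the rescue and 97.3, 80.0 and 103 in shEV, so both rescue libraries lay between the other groups. GAS5, a snoRNA host that builds up in arrested cells, fell from 499, 520.2 and 514 to 253 and 235, and the snoRNA host SNHG1 rose from 137, 136 and 139 to 231 and 231. The value of GAS5 is uncertain because its reads were divided among genes.

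Set against shEV, the gene lists differed in where the rescue left them. The 3 comparisons share libraries, so their medians are given side by side and no more is read from them. The licensing list had medians of -3.05 in knockdown over shEV, 2.87 in rescue over knockdown and -0.22 in rescue over shEV. The same medians were -2.90, 2.90 and 0.00 for the mitotic list, -0.72, 1.03 and 0.34 for the ER list, 1.48, -0.84 and 0.75 for mitochondrially encoded proteins, and 1.12, -0.60 and 0.47 for interferon-stimulated genes. For all tested genes they were 0.03, 0.03 and 0.02.

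**Figure D5:**
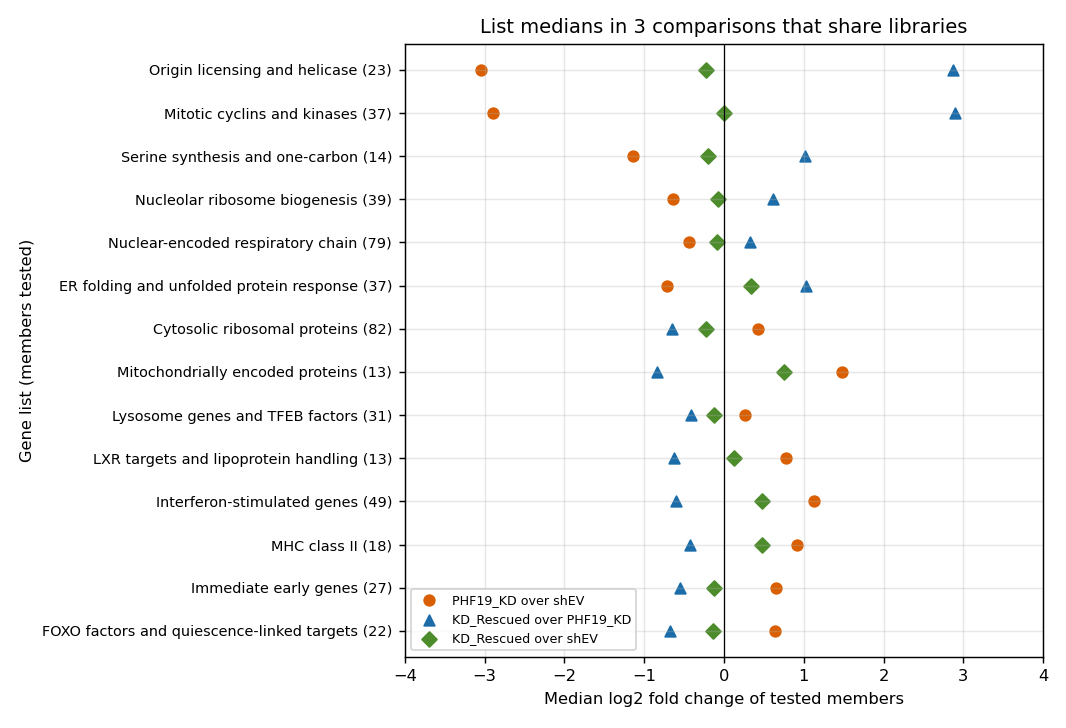
Median log2 fold change of the tested members of 14 gene lists in PHF19_KD over shEV (circles), KD_Rescued over PHF19_KD (triangles) and KD_Rescued over shEV (diamonds). The diamond lies near 0 for the mitotic list (0.00) and at 0.34, 0.75 and 0.47 for the ER, mitochondrially encoded and interferon-stimulated lists.

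The 2 rescue libraries rarely disagreed. Among 13722 tested genes with a mean of at least 1 CPM in them, 136 (0.991%) differed at least 2-fold between both, against 1.82% to 2.17% for pairs of knockdown libraries. The rescue libraries hold more counts (23644123 and 23751353) than the knockdown libraries (10609798 to 12024913), so these shares are not like for like. Chi-square per degree of freedom was 1.74 for the rescue pair and 1.37 to 2.23 for the knockdown pairs. COL6A3, a collagen VI chain, stood at 10.2 and 4.30 CPM in the rescue libraries, against 0, 0.165 and 0.0867 in the knockdown. Its log2 fold change of 6.27 went to 5.52 without rescue replicate 1 and to 7.13 without knockdown replicate 2. CDKN2C (p18), a CDK inhibitor, stood at 3.62 and 0.751 CPM in the rescue, 0, 0 and 0.173 in the knockdown and 0, 0 and 0.118 in shEV. Its fold change of 5.07 went to 3.54 and 5.79 without rescue replicate 1 or 2 and to 8.34 without knockdown replicate 3, where the knockdown is at 0 and the fitted value is no bound.

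Markers of other cell types were low but not constant. The monocyte list of 8 genes summed to 26.9 to 31.5 CPM in the knockdown and 9.84 to 10.7 in the rescue, with CD68 and ITGAM the members above 1 CPM and FCGR3A and S100A8 at 0 throughout. The erythroid list of 6 summed to 12.4 to 14.2 CPM in the knockdown and 60.4 to 61.7 in the rescue, where HBD rose from 9.86, 10.7 and 12.5 to 51.4 and 53.6. The B cell list of 8 summed to 93.9 to 101.9 CPM and 57.4 to 58.3, from CD79B and CR2. T cell and epithelial lists stayed under 3 CPM in every library. The part of these markers in the results was not tested. Part of the reads of CD68, ITGAM and HBD was divided among genes, so those values are uncertain.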

How the data were processed

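Total RNA from MM1S cells was sequenced by the submitters as TruSeq libraries, per the labels' protocols. Estimated counts, which need not be whole, were deposited for each gene and library in 1 table. The submitters' processing notes name CASAVA, RSEM and hg19 with no roles or versions, while the table's name refers to salmon, so which tool made the counts is not settled. For the annotation, the strand setting and filters, no value is given in these sources.

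Estimated counts were rounded and fitted for 8 libraries in 3 groups with edgeR 4.0.16 in R 4.3.3 (quasi-likelihood with robust dispersions, filterByExpr by group, TMM scaling), and KD_Rescued minus PHF19_KD was tested with Benjamini-Hochberg adjustment at 0.05. SE is the fold change divided by the root of the F statistic. Normalised CPM divide counts by the TMM-scaled library total. The conflicting library was left out. Replicates of a group differed by more than sampling noise (chi-square per degree of freedom 1.37 to 2.25, and 8.14 and 9.15 for the pairs with shEV replicate 3). Reads that map to several genes give parts of counts: genes whose count was not whole in at least 2 of 8 libraries are called uncertain, which held for 9303 of 16600 tested genes and 5593 of the calls.

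Named genes are PHF19, the 15 largest rises and falls (called, mean log2 CPM at least 1, no overlap) and the 10 largest in each direction by CPM. XIST and TSIX were left out of the ranking by fold change. Lead members of each list, and at most 2 called rises and 2 falls per list, were also named. The members and lists were chosen with earlier results of these data known. Replicate numbers showed no pairing of knockdown with rescue libraries (correlations of deviations from -0.0259 to 0.0259). With 2 rescue libraries, the values for rescue replicate 1 mirror those for replicate 2. Pairing with shEV was not tested. Alternatives were another set of libraries, scaling, filter, depth, test (DESeq2 1.42.0, glmTreat), a replicate block and leaving out each library. Scripts were tested on simulated counts of 16006 genes, with 50 genes changed at each fold. There 28% of 1.25-fold and 94% of 2-fold changes were recovered, and 7.01% of the calls were unchanged genes. Few genes changed in the simulation, unlike in these data, so it does not test the scaling. Promoter sequences and positions are from RefSeq on GRCh38.p14, and no position from the deposited files was used.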

Additional observations from a re-analysis of the deposited data

How the results depend on the processing

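Calls in KD_Rescued against PHF19_KD numbered 10526 and lay between 7941 (filter at 5 CPM) and 11033 (no filter) over the other settings, with 10919 from the 5 libraries alone, 9637 after thinning every library to the smallest total, and 9187 by DESeq2. Leaving out 1 library at a time gave 9013 to 11322 calls, 3547 to 3980 at least 2-fold, and a PHF19 log2 fold change of 2.99 to 3.03. No gene called in the reported fit was called with the other sign under any setting, and 69.9% to 99.6% of its calls were kept. With the filter at 5 CPM, which tests 10864 genes, calls of at least 2-fold numbered 1720 (911 higher, 809 lower), and a test against a fold of 2 (glmTreat) called 2023 in place of 3849. A replicate block gave 10341 calls and a PHF19 log2 fold change of 2.96, and the replicate numbers showed no pairing of knockdown with rescue libraries. Upper-quartile scaling is the setting that moved the split of calls most, from 53.4% to 42.1% higher. The 17 named genes under the 5 CPM filter, such as CBX2, HOXB9 and IL23R, have no value there. Small counts in the gene lists moved with the setting, and genes under 1 CPM rest on few counts at these depths. Lane and rescue cannot be told apart in any setting.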
